A study of Mus musculus with 6 samples.

Results

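The variable (V) segments of the mouse immunoglobulin heavy chain, named Ighv followed by a family number and a segment number, were followed as a group of 113 genes. They are the rows of the deposited gene table whose biotype is a V gene of an immunoglobulin and whose name starts with Ighv, out of 55487 genes once repeated identifiers had been dropped. The 70 Ighv pseudogene rows, and 2 Ighv rows of another biotype, were left out. Marginal zone (MZ) B cells, a splenic B cell population, were obtained from 14-week-old mice by negative selection of B cells and flow sorting, and their RNA was sequenced in bulk. The groups were 3 libraries from CD55KO mice, in which the complement regulator CD55 is knocked out, and 3 from C57BL/6 mice with intact Cd55, the wild type (WT). The labels give neither the part of Cd55 that was deleted nor the background strain of the knockout. They also do not say that each library came from a separate mouse, so the p-values below measure the spread between libraries, which may be technical.

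A heavy chain gene is assembled in a developing B cell when the RAG recombinase joins a V segment to a joined pair of D and J segments, and the chosen V segment encodes most of the antigen-binding domain of the chain. Each segment has a short leader exon, which encodes the signal peptide, and a V exon, and once it has been joined its promoter comes under the control of the heavy chain enhancers. A population of B cells is a mixture of clones with different V segments, so the counts of a segment reflect both how many cells chose it and how much heavy chain RNA each of them made. In bulk RNA, fewer cells using a segment and less RNA per cell cannot be told apart. MZ B cells respond early to blood-borne antigens, and their receptors are mostly IgM and largely close to the germline sequence.

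All 113 segments were found by gene identifier in the GENCODE M21 annotation of GRCm38, and all lie on the minus strand of chromosome 12, between chr12:113578504 and chr12:116000461. The end with the lower coordinates is the one next to the D segments. Between V exons of the same family the median sequence identity was 85.2%, against 60.3% between V exons of different families. At least 98% identity was shared by 8 pairs, which hold 16 of the 113 segments. The pair that the comparison of the genotypes turns on is Ighv1-62-2 (chr12:115446409-115446869) and Ighv1-71 (chr12:115742205-115742647), whose V exons of 313 bases do not differ at any base. The first 300 bases of that exon, of GENCODE M21 on GRCm38 and written 5′ to 3′ in the direction of transcription, are shown first, followed by the coding part of the 2 leader exons. These leader parts of 46 bases differ by T8G, counted from the A of the start codon with the base of Ighv1-62-2 first, and capitals mark that base.
Ighv1-62-2 and Ighv1-71, V exon: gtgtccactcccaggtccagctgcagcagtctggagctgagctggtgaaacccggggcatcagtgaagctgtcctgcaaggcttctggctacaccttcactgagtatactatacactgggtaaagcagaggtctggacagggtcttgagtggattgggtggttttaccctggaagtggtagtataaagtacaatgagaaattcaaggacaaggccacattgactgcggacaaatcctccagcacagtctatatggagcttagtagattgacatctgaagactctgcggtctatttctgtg
Ighv1-62-2, leader exon, coding part: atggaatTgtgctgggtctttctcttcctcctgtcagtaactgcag
Ighv1-71, leader exon, coding part: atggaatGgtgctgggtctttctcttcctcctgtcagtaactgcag

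The V exons of Ighv10-1 (chr12:114479005-114479317) and Ighv10-3 (chr12:114523441-114523753), of which the last 300 bases are given, belong to the only members of the second most used family, and are shown as the most used segment and its closest relative. Capitals mark the bases at which they differ, 10 in the whole exon of 313.
Ighv10-1: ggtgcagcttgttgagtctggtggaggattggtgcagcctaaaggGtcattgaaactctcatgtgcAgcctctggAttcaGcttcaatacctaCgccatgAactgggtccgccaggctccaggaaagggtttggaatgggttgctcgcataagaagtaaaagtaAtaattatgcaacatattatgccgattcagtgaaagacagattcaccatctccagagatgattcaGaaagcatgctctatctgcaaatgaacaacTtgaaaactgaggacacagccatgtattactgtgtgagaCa
Ighv10-3: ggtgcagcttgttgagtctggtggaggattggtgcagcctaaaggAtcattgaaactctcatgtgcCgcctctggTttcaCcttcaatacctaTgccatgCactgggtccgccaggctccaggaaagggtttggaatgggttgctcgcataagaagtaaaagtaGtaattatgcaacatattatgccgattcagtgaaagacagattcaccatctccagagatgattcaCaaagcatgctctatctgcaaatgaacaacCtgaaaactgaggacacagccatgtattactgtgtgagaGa
The V exons of Ighv1-72 (chr12:115757984-115758288), the germline segment of the classical mouse response to the hapten NP, and Ighv1-62-3 (chr12:115460999-115461303) differ at 3 of 305 bases. Capitals mark these in the first 300 bases below, and the use of these segments differed widely.
Ighv1-72: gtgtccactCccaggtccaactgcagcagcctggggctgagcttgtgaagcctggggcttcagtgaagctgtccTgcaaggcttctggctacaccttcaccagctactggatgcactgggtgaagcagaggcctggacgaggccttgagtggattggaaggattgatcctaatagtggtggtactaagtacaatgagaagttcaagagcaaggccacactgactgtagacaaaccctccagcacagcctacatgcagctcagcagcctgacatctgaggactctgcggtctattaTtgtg
Ighv1-62-3: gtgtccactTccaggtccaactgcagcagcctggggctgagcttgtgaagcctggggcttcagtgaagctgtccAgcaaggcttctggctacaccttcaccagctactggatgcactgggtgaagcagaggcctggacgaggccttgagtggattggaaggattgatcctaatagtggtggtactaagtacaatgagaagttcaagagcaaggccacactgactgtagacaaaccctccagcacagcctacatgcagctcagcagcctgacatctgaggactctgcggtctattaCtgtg

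The libraries held 20056078 to 30784057 estimated counts. The label of each library was checked against the targeted gene: Cd55 was at 7.53 ± 1.36 counts per 1000000 (CPM, SD, n = 3) in CD55KO and 118 ± 7.69 CPM in WT, with no overlap (adjusted p = 3.92e-12 in edgeR for a log2 fold change of -3.96 ± 0.11 SE). The MZ B cell marker Cr2, the complement receptor CD21, was at 1084 ± 75.6 CPM in CD55KO and 1081 ± 44.5 CPM in WT. All 9 MZ B cell markers were detected, with summed levels of 4049 to 4466 CPM in CD55KO and 4056 to 4382 CPM in WT. Notch2 had the smallest p of the 9, at 361 ± 12.3 CPM in CD55KO and 298 ± 25.1 CPM in WT. It was higher in each CD55KO library than in any WT library, but did not pass the test (log2 fold change 0.28 ± 0.09 SE, adjusted p = 0.284, edgeR). Of the 9 markers, 3 had a negative log2 fold change. Summed follicular and transitional B cell markers were at 1409 to 1470 CPM in CD55KO and 1249 to 1462 CPM in WT. Macrophage markers were at 21.9 to 25.5 CPM and 14.9 to 22.6 CPM, which overlapped. T cell markers were at 0.971 to 1.58 CPM and 0.575 to 0.959 CPM, with no overlap but at few counts. Cd68 of the macrophage list was at 16.1 ± 0.78 CPM in CD55KO and 11.8 ± 1.27 CPM in WT. Its libraries did not overlap (adjusted p = 0.209, edgeR), while 3 of the 6 macrophage markers tested had a negative log2 fold change. Haemoglobin and Alas2 RNA, the erythroid list, ranged from 35.5 to 4326 CPM and was highest in WT replicate 1. Chi-square values per degree of freedom over all genes were 13.2 or more for each pair of libraries of a genotype, so no library was a copy of another.

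Ighv counts made up about the same small part of every library, and a slightly larger one in WT. They were 0.1002%, 0.1011% and 0.1002% of all counts in the CD55KO libraries (0.1005 ± 0.0005, SD, n = 3). They were 0.1074%, 0.1059% and 0.1067% in the WT libraries (0.1067 ± 0.0008), so every WT library lay above every CD55KO library. The 95% binomial intervals (Wilson), which cover counting error only, ran from 0.0990% to 0.102% over the CD55KO libraries and from 0.105% to 0.109% over the WT libraries. The constant region of IgM, Ighm, was at 7367 ± 231 CPM in CD55KO and 8070 ± 577 CPM in WT and did not pass the test (a log2 difference of -0.13 ± 0.09 SE, adjusted p = 0.742, edgeR quasi-likelihood test). Per 100 Ighm counts there were 13.7 ± 0.36 Ighv counts in CD55KO and 13.2 ± 0.54 in WT, which overlapped. Per 100 counts of the 100 kappa light chain V segments (Igkv) there were 39.1 ± 0.62 Ighv counts in CD55KO and 36.7 ± 0.84 in WT. On that scale the CD55KO libraries lay higher and did not overlap, so the direction depends on the denominator. Plasma cells hold far more immunoglobulin RNA than other B cells, and the summed level of 8 plasma cell markers was 159 to 175 CPM in CD55KO and 197 to 245 CPM in WT, with no overlap. The largest member of that sum was Xbp1, at 78.5 ± 6.21 CPM in CD55KO and 118 ± 14.0 CPM in WT. Irf4 came next, at 60.8 ± 4.95 CPM in CD55KO and 56.9 ± 7.01 CPM in WT. Of the 7 plasma cell markers tested, 5 had a negative log2 fold change. The defining plasma cell marker Tnfrsf17 had at most 4 counts in a library, while Sdc1 was detected in all and Jchain ranged from 2.64 to 32.4 CPM. The part of plasma cell RNA in the Ighv level was not tested.

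Of the 113 segments, 99 had counts in all 6 libraries, 88 had at least 10 in each, and 4 had none in any library (Ighv1-16, Ighv1-24, Ighv1-62-1 and Ighv7-2). With 21550 to 32611 Ighv counts per library, a count of 0 allows a share of up to 0.0092% to 0.0139% of Ighv counts (3 counts of the total). Use was uneven. The 29 segments with a mean share of at least 1% of Ighv counts held 75.8% of them together, and 32 segments were under 0.1%. The 12 leading segments were the same 12 in every library and held 49.8% of Ighv counts on average, and the same 12 led when counts were divided by transcript length.

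Family 1, by far the largest with 53 of the 113 segments, supplied about as many Ighv counts as all others together. It held 52.7%, 54.7% and 52.7% in the CD55KO libraries and 52.4%, 53.8% and 55.3% in the WT libraries, and the genotypes overlapped (53.3 ± 1.17 and 53.8 ± 1.45, SD, n = 3). Family 10 came second with only 2 segments, at 9.22%, 8.16% and 8.83% in CD55KO and 9.04%, 7.63% and 7.84% in WT. Family 5, which holds the segment nearest to the D segments (Ighv5-2), was at 7.53%, 7.36% and 7.30% in CD55KO and 6.51%, 7.58% and 6.69% in WT. These 3 families kept that order in all 6 libraries with no overlap in their shares.

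Families 9, 3 and 6 followed at 5.86%, 5.71% and 5.64% on average and could not be ranked, since the gaps between them were smaller than the SD over the libraries. Family 3 was at 5.24%, 5.41% and 5.89% in CD55KO and 6.11%, 5.89% and 5.72% in WT, and overlapped. Family 14 (4.68%) and family 2 (3.48%) were lower and kept their places in every library. Families 7 and 8, at 2.05% and 1.87%, were again not separable from each other. Families 4, 13, 11, 12, 15 and 16 were each under 1%, from 0.596% for family 4 down to 0.0026% for family 16, whose single segment had at most 2 counts in a library. The plot of family shares shows each library.

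**Figure D1:**
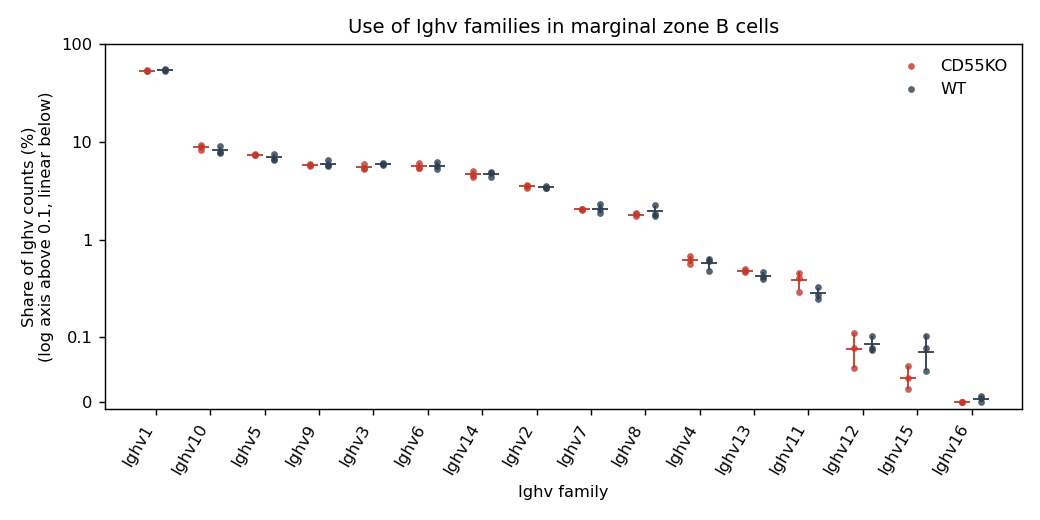
Share of Ighv counts (%, log axis above 0.1 and linear below) held by each of the 16 Ighv families, in order of mean share; points are libraries (3 CD55KO, 3 WT), horizontal ticks the mean and vertical bars ± SD. Family 1 lies at 52.4% to 55.3% in all 6 libraries, and the points of the genotypes overlap in every family.

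Within most families 1 or a few segments supplied most of the counts. Ighv3-6 made up 88.3% of family 3, Ighv7-3 88.2% of family 7, Ighv6-3 81.1% of family 6 and Ighv9-3 68.7% of family 9. In family 1 use was spread widely: its most used segment, Ighv1-64, held 8.73% of the family, and 15 of its 53 segments reached 1% of Ighv counts. Family 10 was the only family with more than 1 segment in which all segments reached 1%.

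The single most used segment on average was Ighv10-1 (chr12:114479005-114479451), with 5.80%, 4.98% and 5.33% of Ighv counts in CD55KO and 6.13%, 4.72% and 5.03% in WT. Its partner Ighv10-3 (chr12:114523441-114523905) held 3.42%, 3.19% and 3.50% in CD55KO and 2.92%, 2.91% and 2.80% in WT. Ighv10-3 was thus higher in each CD55KO library than in any WT library, but the difference did not pass the test (log2 fold change of CPM 0.15 ± 0.09 SE, adjusted p = 0.689). Ighv3-6 (chr12:114288152-114288582) held 4.62%, 4.88% and 5.19% in CD55KO and 5.44%, 5.06% and 5.05% in WT. Ighv10-1 lay above Ighv3-6 in 4 of 6 libraries, by a mean gap smaller than the SD.

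Ighv1-64 (chr12:115507545-115508031) was at 4.81%, 4.87% and 4.90% in CD55KO and 4.48%, 4.61% and 4.39% in WT. Its shares did not overlap, while its CPM did (log2 fold change 0.04 ± 0.08 SE, adjusted p = 0.951). Ighv6-3 (chr12:114391712-114392169), the main segment of family 6, ranged from 4.11% to 5.11% over the 6 libraries. Ighv1-82 (chr12:115952538-115953005), near the far end of the locus, ranged from 3.87% to 5.06% and was the most used segment in CD55KO replicate 2 and WT replicate 3. Ighv1-53 (chr12:115158403-115158835) ranged from 3.76% to 4.90% and Ighv1-55 (chr12:115208095-115208591) from 4.24% to 4.63%. Between Ighv1-64 and Ighv1-55 the order of the segments changed from library to library, with each gap held in no more than 3 of 6 libraries.

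Ighv9-3 (chr12:114140692-114141122) held 4.03% on average and lay above Ighv1-72 in every library without overlap. Ighv1-72 was at 3.27%, 3.48% and 3.69% in CD55KO and 3.79%, 3.26% and 3.68% in WT. Its neighbour in sequence, Ighv1-62-3, differing at 3 bases, was at 0.464% to 0.631%, so segments with nearly the same V exon were given very different counts. Ighv1-80 (chr12:115912344-115912776) at 3.44% could not be ranked against Ighv1-72. Ighv1-26 (chr12:114788372-114788805), at 2.66%, closed the group of 12 and lay below Ighv10-3 in all libraries. The plot of the 20 leading segments shows these values.

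**Figure D2:**
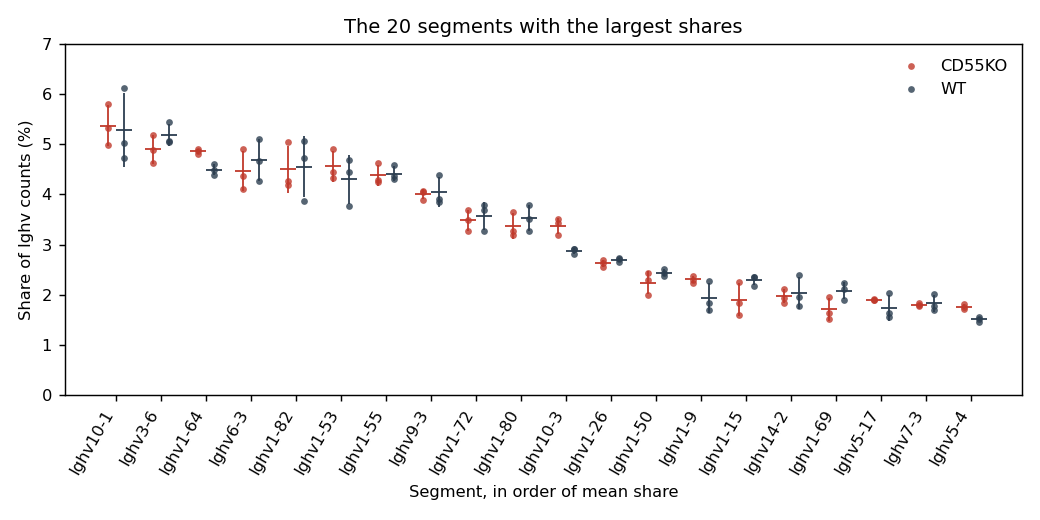
Share of Ighv counts (%) of the 20 segments with the largest mean share; points are libraries (3 CD55KO, 3 WT), horizontal ticks the mean and vertical bars ± SD. Shares fall from 5.33% for Ighv10-1 to 1.63% for Ighv5-4, and Ighv1-26 at 2.54% to 2.73% overlaps neither of its neighbours in the order.

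The leading segments did not lie together on the chromosome. The segments were split by order along the locus into a near part next to the D segments (38 segments), a middle part (38) and a far part (37). The near part holds no family 1 segment and segments of 9 families, and it supplied 24.9%, 23.7% and 23.8% of Ighv counts in CD55KO and 23.6%, 24.2% and 23.3% in WT. The middle part supplied 33.7%, 33.2% and 34.4% in CD55KO and 34.96%, 32.5% and 32.9% in WT. The far part, with 30 family 1 segments and 7 of family 8, supplied 41.4%, 43.1% and 41.8% in CD55KO and 41.4%, 43.3% and 43.8% in WT. The genotypes overlapped in each of them, and in all 6 libraries the far part supplied the most and the near part the least. Of the 12 leading segments 1 lies in the near part (Ighv9-3), 5 in the middle and 6 in the far part. Segments under 0.1% were found in all 3 parts (11 near, 14 middle, 7 far), as were segments of at least 1% (9 near, 9 middle, 11 far).

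**Figure D3:**
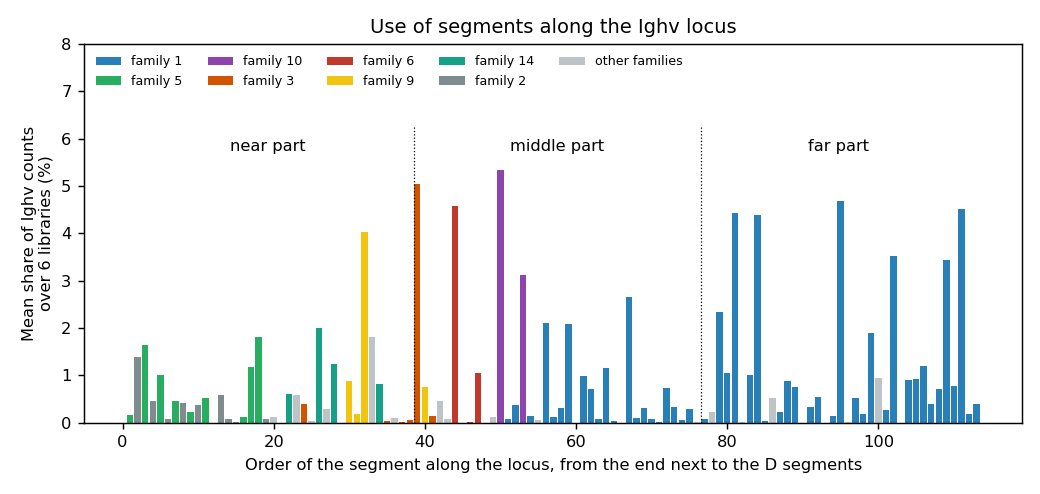
Mean share of Ighv counts over the 6 libraries (%) of each of the 113 segments, in order along the locus from the end next to the D segments; colours mark families and dotted lines the borders of the near, middle and far parts. Tall bars stand among segments close to 0 in each part, with the 4.68% of Ighv1-64 in the far part and the 5.33% of Ighv10-1 in the middle part.

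Distances in segment use between libraries of different genotype overlapped those between libraries of 1 genotype. The Bray-Curtis distance, which is the part of the Ighv counts (in %) that would have to move between segments to make 2 libraries equal, was 5.06 to 5.46% between CD55KO libraries and 5.01 to 6.97% between WT libraries. Between genotypes it was 4.35 to 7.77%, and the smallest of all 15 distances was that of CD55KO replicate 2 and WT replicate 3. The distances that involve WT replicate 1 were all 6.58% or more. The mean shares of the genotypes had a Pearson correlation of 0.995 across the 113 segments, which are not independent replicates. Libraries of 1 genotype differed by more than counting noise in their segments, with chi-square values of 2.70 to 5.03 per degree of freedom. Between genotypes these values were 3.22 to 5.88, and 6 of the 9 pairs lay above every pair of 1 genotype.

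The evenness of use was the same within the spread of the libraries. The effective number of segments (the inverse Simpson index, which is the number of equally used segments that would give the same unevenness) was 37.6, 36.7 and 36.0 in CD55KO and 35.2, 37.9 and 37.0 in WT. It was 36.8 ± 0.80 and 36.7 ± 1.37 (SD, n = 3), and the genotypes overlapped. The largest segment held 5.39 ± 0.38% of Ighv counts in CD55KO and 5.41 ± 0.62% in WT, so no library had a segment far above the rest. In each library 12 or 13 segments made up 50% of Ighv counts or more.

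The genotypes were compared segment by segment in the fit over all genes, with edgeR's quasi-likelihood test and Benjamini-Hochberg adjustment over 13795 genes. Of the 113 segments 94 passed the filter on low counts, and the other 19 had at most 18 counts in any library. No segment passed an adjusted p of 0.05 as higher in CD55KO and 1 passed as lower, Ighv1-62-2, where 0.399% of all genes tested passed in either direction (0.138% higher and 0.261% lower). At an unadjusted p under 0.05 there were 9 segments, all lower in CD55KO, against 8.6% of all genes (4.31% lower). Every CD55KO library lay above every WT library for 4 segments and below every WT library for 10, against 14.1% of all genes (7.23% higher and 6.83% lower). On shares of Ighv counts, 9 of the same 94 segments lay above and 5 below with no overlap. All genes shifted in the same direction when set against the Ighv total, to 14.1% above and 2.93% below. The change in these counts is therefore not particular to the segments. The median log2 fold change was -0.08 over the 94 segments and 0.0014 over all genes, and 57 of the 94 segments had a negative value, against 49.6% of all genes. With the Ighv total of each library as its library size the median of the segments was -0.0015.

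**Figure D4:**
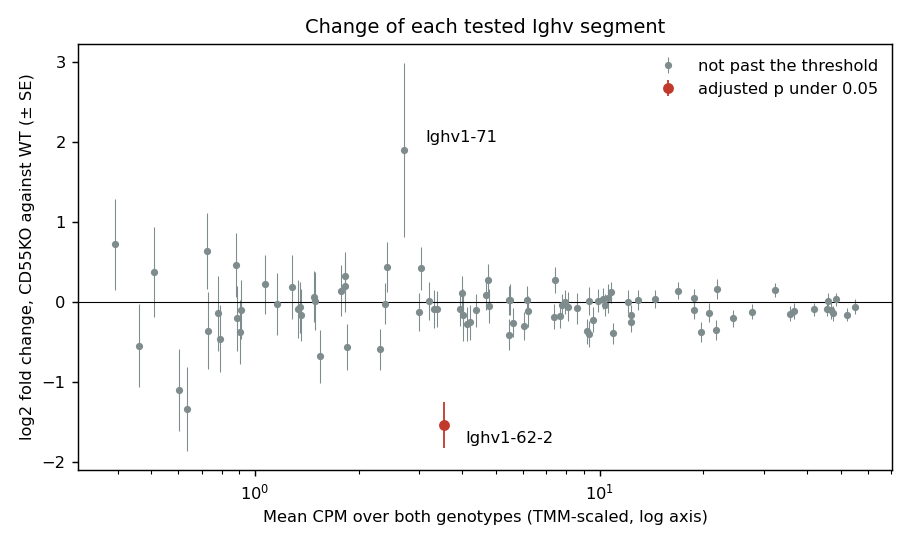
Log2 fold change of CPM in CD55KO against WT (± SE, edgeR) of the 94 tested Ighv segments against their mean CPM (log axis). Ighv1-62-2 (-1.54, adjusted p = 0.0219) is the only segment past an adjusted p of 0.05; Ighv1-71 (1.90, adjusted p = 0.742) has the same V exon and lies on the other side.

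Ighv1-62-2 was lower in CD55KO, Ighv1-71 with the same V exon had a fold change of the opposite sign, and their sum was close between genotypes. Ighv1-62-2 had 63, 25 and 59 counts in CD55KO and 134, 141 and 136 in WT. These were 2.31, 1.01 and 2.07 CPM in CD55KO and 6.51, 4.50 and 4.83 CPM in WT, with no overlap (log2 fold change -1.54 ± 0.29 SE, adjusted p = 0.0219). The adjusted p was 0.0562 in limma-voom, and between 0.0176 and 0.0963 when 1 library was left out. It stayed under 0.05 in 2 of those 6 fits, and was 0.0661 and 0.0630 without CD55KO replicates 2 and 3 and 0.0963 and 0.0804 without WT replicates 1 and 3. Ighv1-71 had 104, 119 and 123 counts in CD55KO and 0, 19 and 77 in WT, also with no overlap, but did not pass the test (1.90 ± 1.09 SE, adjusted p = 0.742).

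Summed, the pair held 0.625%, 0.571% and 0.622% of Ighv counts in CD55KO and 0.622%, 0.491% and 0.684% in WT. On the CPM scale the sum was 6.11 ± 0.27 in CD55KO and 6.40 ± 1.23 in WT (log2 fold change -0.06 ± 0.18 SE, 95% interval of the fit -0.45 to 0.32, adjusted p = 0.972). When all pairs with at least 98% identity were summed, a choice made after the values had been seen, no Ighv row passed an adjusted p of 0.05, and 0.392% of the 13790 genes tested then did. Estimated counts can divide reads between genes they match, and since the V exons of the 2 segments are the same, a read within that exon cannot be assigned by sequence. The lower level of Ighv1-62-2 is therefore uncertain as a change of that segment.

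**Figure D5:**
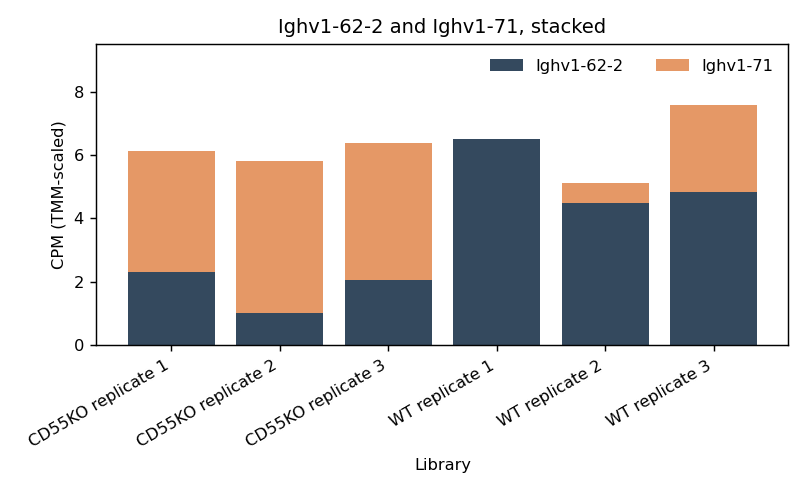
CPM of Ighv1-62-2 (dark) and Ighv1-71 (light) stacked for each of the 6 libraries. The dark part is 1.01 to 2.31 CPM in CD55KO and 4.50 to 6.51 CPM in WT, while the stacked totals overlap (5.83 to 6.37 CPM and 5.11 to 7.57 CPM).

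A second pair with nearly the same V exon differed less. Ighv1-52 (chr12:115145487-115145919) had the next smallest adjusted p among the segments, at 9.46 ± 0.35 CPM in CD55KO against 12.4 ± 0.47 CPM in WT (-0.39 ± 0.13 SE on the log2 scale, adjusted p = 0.325). Its V exon is 98.7% identical to that of Ighv1-61, and the sum of both was 17.1 ± 0.34 CPM and 20.3 ± 0.71 CPM (a log2 difference of -0.24 ± 0.10 SE, adjusted p = 0.503). Unlike the first pair, this sum still did not overlap between genotypes, and it did not pass the test. In 73 segments the deposited value was not a whole number (to within 0.005) in at least 1 library, as estimated counts can be where reads match more than 1 gene. Their median identity to the nearest other V exon was 96.1%, against 89.2% for the 36 other segments with counts.

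No family passed the test. Of the 16 families, summed to 1 row each in the fit over all genes, 15 were tested and none passed an adjusted p of 0.05, where 0.394% of all genes tested did. None passed under DESeq2 or limma-voom. At an unadjusted p under 0.05 there were 2 in edgeR, against 8.57% of all genes. Family 3 was at 55.6 ± 4.51 CPM in CD55KO against 62.9 ± 1.38 CPM in WT, the only family whose CPM did not overlap (-0.18 ± 0.08 SE on the log2 scale, adjusted p = 0.565). Family 15, a single segment with few counts, was at 0.381 ± 0.179 CPM and 0.821 ± 0.270 CPM (-1.10 ± 0.51 SE, adjusted p = 0.575). The fold changes of the other 13 families were within 1.5-fold. For family 1 the estimate was -0.09 ± 0.08 SE (adjusted p = 0.836), for family 10 it was 0.02 ± 0.08 SE (adjusted p = 0.983) and for family 5 it was 0.02 ± 0.08 SE (adjusted p = 0.986).

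Segments known from well-studied antibody responses were looked at by name. Ighv7-1, the T15 segment of antibodies to phosphorylcholine, held 0.146%, 0.115% and 0.120% of Ighv counts in CD55KO and 0.153%, 0.117% and 0.135% in WT. The fold change of its CPM was -0.16 ± 0.33 SE on the log2 scale (adjusted p = 0.946). Ighv11-2 and Ighv12-3 encode antibodies to phosphatidylcholine and are typical of B-1 cells. Ighv11-2 held 0.370%, 0.238% and 0.427% in CD55KO and 0.237%, 0.215% and 0.279% in WT, which overlapped (log2 fold change of CPM 0.42 ± 0.26 SE, adjusted p = 0.724). Ighv12-3 had 14 to 34 counts per library, and its estimate was -0.20 ± 0.41 SE (adjusted p = 0.946). The summed level of 8 B-1 cell markers was 92.4 to 120 CPM in CD55KO and 84.7 to 106 CPM in WT, with Cd5 at 2.14 to 3.84 CPM in every library. In that list S100a6 was at 9.31, 14.97 and 7.25 CPM in CD55KO and 5.20, 6.07 and 5.44 CPM in WT, with no overlap (adjusted p = 0.163 in edgeR, called higher by DESeq2), and Plscr1 at 21.3 ± 1.41 CPM and 18.0 ± 1.38 CPM (adjusted p = 0.537 in edgeR). S100a6 and Plscr1 were the only 2 of the 8 B-1 markers with an unadjusted p under 0.05 in edgeR. Of the 8, 2 had a negative log2 fold change. The part of B-1 cells in the Ighv11-2 values was not tested. Ighv5-2, known as 81X, the functional segment nearest to the D segments, held 0.258%, 0.162% and 0.137% in CD55KO and 0.148%, 0.132% and 0.193% in WT, and overlapped.

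Among segments of at least 0.2% of Ighv counts, those whose highest library stood furthest above their median library were Ighv1-62-2, Ighv11-2, Ighv1-71, Ighv8-8 and Ighv2-3. Ighv8-8 was at 0.736% in WT replicate 2 and at 0.400% to 0.516% in the other libraries. Ighv2-3 was at 0.576% and 0.567% in CD55KO replicates 1 and 2 and at 0.350% to 0.443% in the other 4. Neither passed the test (adjusted p = 0.597 and 0.789 in edgeR).

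The J segments, which form the other end of the joined gene, were covered thinly, with 189 to 245 counts over 4 segments per library. Ighj4 held 34.6 ± 2.47% of them in CD55KO and 31.9 ± 3.79% in WT, Ighj2 29.1 ± 2.90% and 33.9 ± 3.64%, Ighj1 21.2 ± 1.88% and 20.6 ± 1.23%, and Ighj3 15.1 ± 2.45% and 13.7 ± 0.18%. Each overlapped between the genotypes.

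None of the other genes listed for making a heavy chain passed an adjusted p of 0.05 in edgeR or limma-voom, where 0.399% of all genes did in edgeR. Of 8 heavy chain constant genes 7 were tested, and 3 had an unadjusted p under 0.05. Ighd, which is spliced from the same primary transcript as Ighm in naive B cells, was at 711, 651 and 539 CPM in CD55KO and 492, 511 and 468 CPM in WT, with no overlap (an edgeR log2 fold change 0.37 ± 0.10 SE, adjusted p = 0.187). Ighg2c, a switched isotype, was at 1.76 ± 0.08 CPM and 5.12 ± 3.21 CPM (-1.54 ± 0.46 SE, adjusted p = 0.340). Igha, also a switched isotype, went the other way, at 9.90 ± 0.40 CPM in CD55KO and 7.40 ± 0.43 CPM in WT. Its libraries did not overlap (log2 fold change 0.42 ± 0.14 SE, adjusted p = 0.341, edgeR). Of the 7 constant genes tested, 4 had a negative log2 fold change. DESeq2's Wald test called Ighd as higher and Ighg2c as lower in CD55KO, and no other constant gene. Of 14 genes of V(D)J recombination and end joining 11 were tested and none passed, with 1 at an unadjusted p under 0.05. Rag1 and Rag2, the recombinase itself, had at most 2 counts in a library and Dntt, which adds bases at the joints, had none. The smallest p values in that list were those of Xrcc4, a partner of the ligase (15.4 ± 1.01 CPM and 11.5 ± 0.55 CPM, adjusted p = 0.240), and of Lig4, the ligase (5.31 ± 1.34 CPM and 6.85 ± 0.64 CPM, adjusted p = 0.651).

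None of 8 genes for contraction and accessibility of the locus passed, with 1 at an unadjusted p under 0.05. The smallest p values there were those of Ebf1, an early B cell factor (670 ± 33.5 CPM and 593 ± 3.22 CPM, adjusted p = 0.579), and Ezh2, a histone methyltransferase (9.82 ± 0.29 CPM and 11.8 ± 1.69 CPM, adjusted p = 0.662). None of the 3 activators of V promoters passed, with none at an unadjusted p under 0.05 and Pou2f1 at 63.1 ± 6.56 CPM and 58.6 ± 3.82 CPM (adjusted p = 0.811) and Pou2af1 at 245 ± 6.33 CPM and 232 ± 8.13 CPM (adjusted p = 0.843). Of 10 genes of receptor assembly 8 were tested and none passed at either level, with Igkc, the kappa constant region, at 6125 ± 242 CPM and 6754 ± 357 CPM (adjusted p = 0.710). None of 4 genes of somatic mutation passed. Among them Exo1, a nuclease and the only 1 with an unadjusted p under 0.05, was at 2.74 ± 0.50 CPM and 4.06 ± 0.25 CPM (adjusted p = 0.479). The summed level of 8 germinal centre markers was 25.7 to 31.6 CPM in CD55KO and 28.1 to 71.7 CPM in WT, highest in WT replicate 1. In edgeR 1 gene of the plasma cell list fell, the transcription factor gene Xbp1 (78.5 ± 6.21 CPM and 118 ± 14.0 CPM, adjusted p = 0.00471, edgeR, also called by DESeq2 and limma-voom), and 1 of the germinal centre list fell, Gcsam (1.06 ± 0.48 CPM and 3.74 ± 1.26 CPM, adjusted p = 0.0342). Gcsam was not called by limma-voom, nor by edgeR when any 1 of the 6 libraries was left out (adjusted p = 0.0587 to 0.16), whereas Xbp1 passed in all 6 of those fits. DESeq2's Wald test also called Nuggc of the germinal centre list lower (0.88 ± 0.41 CPM and 3.72 ± 2.01 CPM, adjusted p = 0.228 in edgeR). The part of these cells in the segment values was not tested.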

How the data were processed

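RNA of flow-sorted MZ B cells was sequenced in 6 libraries (3 CD55KO, 3 WT) made with a kit for very low RNA input that does not mark strand, per the labels' protocols. DRAGEN, edgeR and limma appear in the submitters' processing notes. No genome build was given in the sources used. The deposited values are estimated counts per gene that the authors made; they need not be whole numbers and were rounded here. Reads of near-identical segments, and of overlapping or antisense genes, cannot be told apart with certainty in such values. Reads from mutated V regions may be lost in alignment, and how many is not known.

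The table had 55774 rows, of which 287 repeats were removed. Repeats of all 168 repeated identifiers held equal values. Shares are percentages of the summed Ighv counts of a library, and each library has equal weight in a mean. Totals were 20056078 to 30784057 counts. Levels are CPM scaled by trimmed means (TMM). CD55KO was tested against WT with edgeR (version 4.0.16, R version 4.3.3, filterByExpr, robust quasi-likelihood F-test, genotype only, all 6 libraries), on the whole table, tested on simulated data. Families were summed to 1 row each in a second such fit. Shares, parts of the locus and distances got no test: 3 libraries against 3 are too few for a permutation test to reach 0.05. Sequence positions come from GENCODE M21 (GRCm38), with V exons compared by identity (Python 3.11.15, pandas 2.3.3).

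The named segments are the 12 with the largest mean share, every segment past an adjusted p of 0.05, the 5 with the largest ratio of highest to median share among those with a mean of at least 0.2%, and 7 known from the literature. Ighv1-52, Ighv1-62-3 and Ighv5-4, the last segment of the plotted 20, were named after their values had been seen, as were the segments that make up most of a family. Of the lists of constant genes, recombination, locus contraction and V promoter activators the 2 genes with the smallest p are named. Of the plasma cell and germinal centre lists those past the threshold in edgeR are named. Exo1, Igkc, Notch2 and Cd68 had the smallest p among the reported genes of their lists. The follicular and T cell lists are given as sums only. Ighm, Igha, Igkc, Jchain, Sdc1, Tnfrsf17, Irf4, Cd5, S100a6, Plscr1 and Nuggc were added for their roles or after their values had been seen. The same holds for Cr2, Notch2, Cd68, Rag1, Rag2 and Dntt. Some genes of the somatic mutation and germinal centre lists are not reported here. The segments and all gene lists were chosen with earlier results of these data known. Alternatives were DESeq2 1.42.0, limma-voom (limma 3.58.1), other scalings, other count filters, a replicate block and leaving out each library. Recombination signals and promoters of the segments were not analysed here.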

Additional observations from a re-analysis of the deposited data

How the results depend on the processing

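The count of 0 segments higher in CD55KO held in all alternatives. The 1 segment lower in CD55KO, Ighv1-62-2, was also the only one under DESeq2's Wald test, DESeq2 size factors, library totals, the Ighv total as library size, no count filter, a stricter filter and the replicate block. The count fell to 0 under limma-voom and with near-identical segments summed, and ranged from 0 to 1 when 1 library was left out. Over the alternatives other than the summing, the log2 fold change of Ighv1-62-2 ran from -1.76 to -1.27. The cause of the loss under limma-voom was not tested. The same replicate numbers occur in both genotypes, and no pairing by these numbers was seen. Deviations from the genotype means correlated at -0.12 to 0.17 for libraries with the same number and at -0.24 to 0.17 for the others. With 3 libraries per genotype, these correlations cannot show whether the libraries were paired. With the replicate block the adjusted p of Ighv1-62-2 was 0.00758 and 7 segments had an unadjusted p under 0.05.

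No family passed under any alternative. With the Ighv total as library size the log2 fold changes reversed to 0.0236 for Ighv10-1, 0.0280 for family 2 and 0.00336 for family 14, and with near-identical segments summed Ighv1-71 shared the -0.0637 of its pair. Leaving out 1 library also reversed estimates near 0, none of them past the threshold. The log2 fold changes then ranged from -0.145 to 0.0469 for Ighv10-1, -0.211 to 0.0127 for Ighv1-82, -0.0940 to 0.0656 for Ighv1-53, -0.488 to 0.0529 for Ighv12-3, -0.142 to 0.351 for Ighv5-2. Those of families ranged from -0.0357 to 0.0693 for family 5, -0.0581 to 0.102 for family 4, -0.488 to 0.0527 for family 12, -0.0412 to 0.0851 for family 10. For shares and effective numbers, the difference between the genotypes (CD55KO minus WT) was recomputed. All 65 differences under other settings moved by less than the pooled SD of the libraries. So did all 126 differences without 1 library, but that outcome was fixed in advance. With 3 libraries per genotype, leaving 1 out cannot move a difference by as much as that SD, so nothing is concluded from the 126. The shares and effective numbers themselves were not compared in this way. Segments under about 10 counts per library are limited by depth.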
